A study of Mus musculus with 8 samples.

Results

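The genes described here are the factors that build ribosomes and process ribosomal RNA (rRNA), followed in J1 mouse embryonic stem cells whose eIF4A2, an RNA helicase of the DEAD-box family related to the translation initiation factor eIF4A1, was lowered by shRNA. Members were taken by gene symbol. The rule kept the Nop, Utp, Rrp, Nol and Exosc genes whose symbol goes on with a number, the Noc genes ending in l, and Bop1, Pes1, Fbl, Dkc1, Gar1, Ncl, Imp3 and Imp4. It found 54 genes, the same 54 in the footprint table of 12818 genes and in the total RNA table of 13436 genes. All 54 passed the filter on low read numbers in both. The rule used no measured value.

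Ribosome profiling sequences the stretches of mRNA that ribosomes shield from nuclease (footprints), and total RNA was sequenced alongside. All cells were the J1 line (strain 129S4/SvJae), grown feeder-free on gelatin with 15% serum and leukemia inhibitory factor, infected on day 0, kept in puromycin (1 μg/mL) over 3 days, and lysed on day 4.5 after 1 min in 0.1 mg/mL cycloheximide. The knockdown groups carried eIF4A2 shRNA and the control groups a control shRNA, with 2 libraries for each of the 4 groups (footprints of knockdown, footprints of control, total RNA of knockdown, total RNA of control). The protocol names shNT and shGFP as controls and sheIF4A2-2 and sheIF4A2-3 against eIF4A2, and describes the 2 samples per group as biological replicates. It does not tie hairpins to replicates, so in each group replicate and hairpin cannot be told apart. Everything rests on 1 cell line and on a partial knockdown.

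Ribosomes are assembled in the nucleolus from a long precursor rRNA made by RNA polymerase I. Small nucleolar ribonucleoproteins (snoRNPs) modify the precursor. The small subunit processome and the large subunit assembly factors fold and cut it, and the RNA exosome trims spacer ends and degrades the by-products. Many genes for these factors are known targets of the transcription factor Myc, and embryonic stem cells, which divide fast, are known for a high rate of ribosome production.

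By role, 4 members are proteins of the box C/D snoRNPs, 3 of the box H/ACA snoRNPs, 1 is nucleolin, 22 belong to the small subunit processome, 13 to large subunit assembly and 9 to the RNA exosome. The other 2, Nol3 (an inhibitor of apoptosis) and Nol4l, match the symbol pattern but have no known role in rRNA processing. Promoter sequences from 250 before to 50 after the annotated start were matched by symbol for 43 of the 54 members in a RefSeq table of build GRCm38.p6. The E-box CACGTG, the letters that Myc and its partner Max bind, reads the same on both strands and stood in 10 of the 43 (23.3%), against 12% of 10411 genes tested in these tables and 8.09% of 27025 promoters in all. The E-box members were Exosc5, Imp4, Nol11, Nop2, Pes1, Rrp7a, Utp4, Utp14b, Utp18 and Utp20. The 4 stretches that follow are printed because their E-box lies within the 120 bases upstream of the start, the E-box in capitals and each read 5′ to 3′ along the gene. They are Exosc5 (chr7:25659033-25659152, plus strand), Nol11 (chr11:107189382-107189501, minus strand), Nop2 (chr6:125131763-125131882, plus strand) and Utp18 (chr11:93885767-93885886, minus strand).
Exosc5: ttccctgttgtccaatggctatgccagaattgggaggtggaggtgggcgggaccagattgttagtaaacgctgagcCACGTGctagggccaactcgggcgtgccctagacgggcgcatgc
Nol11: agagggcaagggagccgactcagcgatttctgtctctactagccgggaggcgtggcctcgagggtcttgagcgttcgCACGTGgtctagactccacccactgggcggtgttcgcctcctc
Nop2: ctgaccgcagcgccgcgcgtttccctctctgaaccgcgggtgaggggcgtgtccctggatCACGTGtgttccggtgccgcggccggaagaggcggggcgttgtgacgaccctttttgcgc
Utp18: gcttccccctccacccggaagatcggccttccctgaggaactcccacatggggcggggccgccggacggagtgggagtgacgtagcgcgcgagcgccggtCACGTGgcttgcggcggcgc
Counting from the start site, the E-box began at position -44 in Exosc5, -43 in Nol11, -60 in Nop2 and -20 in Utp18. In Utp14b it began at -63. That stretch is not printed because it overlaps the region of Utp14b itself as the RefSeq gene table gives it, so the position is uncertain. Other short motifs were searched on both strands, with no account taken of overlap between motifs. The ETS core CCGGAAG was in 13 of the 43 promoters (30.2%, against 19.6% of the genes tested), the GC box GGGCGG in 32 (74.4% against 69.6%), CCAAT in 16 (37.2% against 43%) and TATAAA in 5 (11.6% against 8.41%). Median GC content was 58.8% in the members and 61% in the genes tested. A match describes letters in the window and says nothing of a factor bound there.

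Read numbers recovered from the values were 7947827 to 9573832 in 3 footprint libraries and 8564582 to 12840349 in the total RNA libraries. Footprint control 2 would hold 10682677 reads if its lowest value is 1 read, which was not established. Values are in CPM, reads scaled by an effective library size. Each log2 fold change (log2FC) is knockdown against control on the scale log2(CPM + 1), given with its standard error, and it understates changes of genes with few reads. Eif4a2 itself stood at 311 and 153 CPM in the knockdown footprints against 395 and 409 CPM in the control, and at 583 and 617 against 739 and 969 CPM in total RNA. Both knockdown libraries lay below both controls in each assay. Such a lack of overlap, in either direction, was found for 44.8% of all genes in footprints and 47.9% in total RNA. The Eif4a2 log2FC was -0.88 ± 0.29 in footprints and -0.50 ± 0.18 in total RNA (adjusted p = 0.273 and 0.290, limma). Its FDR in the authors' deposited table was 0.240 and 0.221. Eif4a2 itself thus did not pass the threshold used below in either assay. Of 6 stem cell markers, all were present, with a summed level of 3380 to 3450 CPM in the knockdown footprints and 5239 to 5431 CPM in the control, and of 3437 to 3500 against 4543 to 5611 CPM in total RNA. Fibroblast markers were scarce, with 4 of 8 listed for footprints at a summed 18.3 to 18.5 CPM in the knockdown and 13.4 to 21.8 CPM in the control, and 3 of 8 for total RNA at 9.08 to 9.32 against 6.99 to 17.0 CPM. Extraembryonic endoderm markers, 4 of 4 listed for footprints, summed to 13.4 to 17.9 CPM in the knockdown and 13.3 to 17.4 CPM in the control. Trophoblast markers, 2 of 4 listed, summed to 27.3 to 37.2 and 23.1 to 31.3 CPM. In total RNA 3 of 4 endoderm markers were listed, at gene means of only 1.84 to 4.77 CPM. They summed to 12.4 to 13.5 CPM in the knockdown and 6.43 to 9.14 CPM in the control, higher without overlap. Only 1 of 4 trophoblast markers was listed for total RNA, at 15.8 to 16.6 and 16.4 to 21.6 CPM. The part that the lower stem cell markers and the higher endoderm markers have in the values of the ribosome factors was not tested. In such bulk samples fewer cells of a type and less RNA per cell cannot be told apart.

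The question put to the data was whether ribosome production factors differed, in footprints, in RNA or in the ratio between them, when eIF4A2 was lowered. None of the 54 members passed the threshold (adjusted p of 0.05, limma with Benjamini-Hochberg adjustment over all genes) in any of these comparisons. The same count over all genes was also 0 (0% of 12723 genes for footprints, 0% of 13436 for total RNA and 0% of 12358 for the ratio). The target Eif4a2 was thus among the genes that did not pass. At an unadjusted limma p of 0.05 footprints gave 3 members, Nop2 higher and Rrp15 and Utp3 lower, where 12.9% of all genes passed (6.12% higher, 6.74% lower). Total RNA gave 2, Imp3 and Utp14b, both lower, where 14.9% of all genes passed (6.82% higher, 8.08% lower). The authors' deposited table, which comes from another test, called no member either at an FDR of 0.05, while it called 1.68% of genes in footprints and 5.4% in total RNA. Its smallest FDR for a member was 0.414 for Nop2 in footprints and 0.174 for Imp3 in total RNA. On reads recovered from the total RNA table, edgeR and DESeq2 called no member. With 2 libraries against 2 an exact permutation test of a single gene cannot give a p below 0.333.

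The members lay close to 0 in both assays. Their median log2FC was -0.02 in footprints, where the median of all genes was 0.01, and 0.03 in total RNA, where it was -0.00. In footprints 45 of the 54 had a log2FC between -0.3 and 0.3 (83.3%, against 60.9% of all genes), and in total RNA 50 (92.6% against 66.0%). The 95% interval of the log2FC lay wholly inside a 2-fold change, up or down, for 49 members in footprints (90.7%, against 68.8% of all genes) and for 53 in total RNA (98.1% against 80.5%). Such shares were not particular to the members. Of the 106 other genes of ribosome production described below, 80.2% lay within 0.3 in footprints and 89.6% in total RNA. Their intervals lay inside a 2-fold change for 93.4% and 96.2%. The part of expression level in these shares was not tested. In footprints the knockdown and control libraries did not overlap for 24 members, 12 higher and 12 lower, which is 44.4% where all genes gave 44.8%. In total RNA they did not overlap for 17, 11 higher and 6 lower, which is 31.5% where all genes gave 47.9%. Of all genes 23.3% were higher and 24.6% lower without overlap in that assay.

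**Figure D1:**
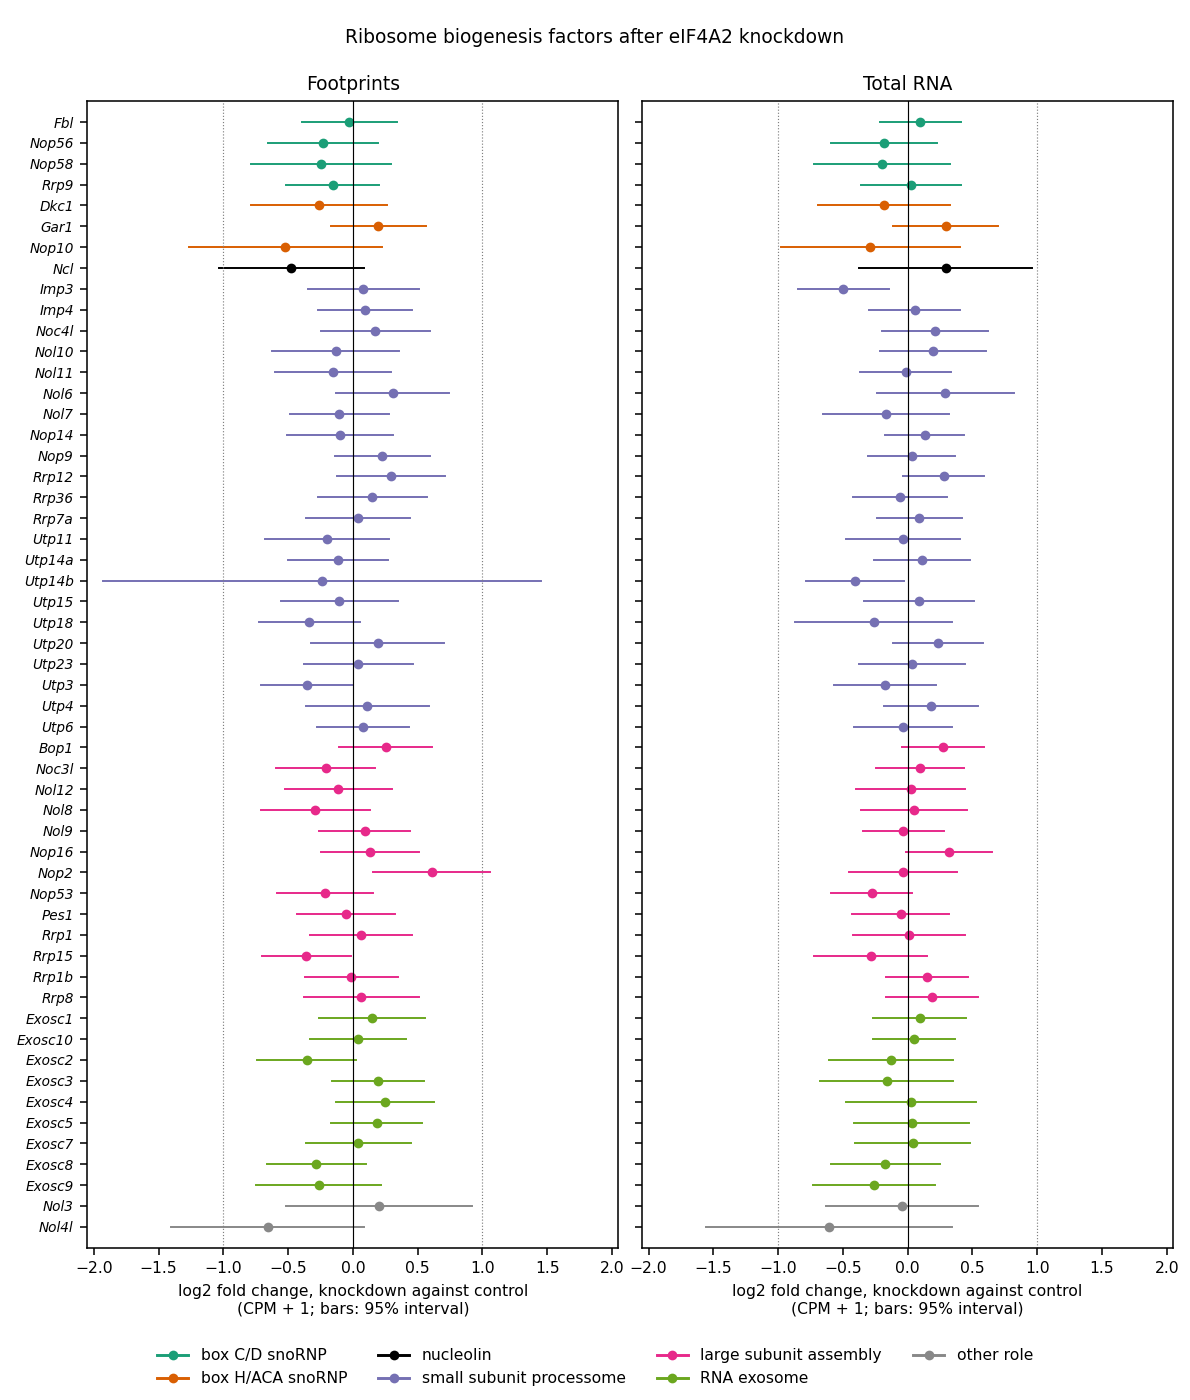
Log2 fold change of knockdown against control on the CPM + 1 scale (horizontal axis) for each of the 54 members (vertical axis, grouped and coloured by role), in footprints on the left and total RNA on the right, with bars for the 95% interval and dotted lines at a 2-fold change. Most points lie within 0.3 of 0, Nop2 is the highest in footprints at 0.61, and the Utp14b footprint interval is the widest.

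Among the box C/D snoRNP proteins, fibrillarin (Fbl), the methyltransferase that modifies ribose in rRNA, had 425 and 404 CPM in the knockdown footprints and 432 and 412 CPM in the control. Groups overlapped, and the log2FC was -0.03 ± 0.16. In total RNA its 262 and 251 CPM in the knockdown stood above the 235 and 244 CPM of the control, without overlap, at a log2FC of 0.10 ± 0.13 (adjusted p = 0.766, limma). Nop56 and Nop58 form the core on which fibrillarin sits. Nop56 footprints were 521 and 669 against 696 and 689.8 CPM, both knockdown libraries below both controls, with a log2FC of -0.23 ± 0.19 (adjusted p = 0.649, limma). Nop58 footprints were 287 and 446 against 373 and 483 CPM. There the 2 libraries of each group lay further apart than the group means, and the groups overlapped. Rrp9, the protein specific to the U3 snoRNP, had 188 and 171 against 207 and 193 CPM, again lower without overlap, with a log2FC of -0.16 ± 0.16. All 4 box C/D members thus had a negative footprint log2FC, between -0.24 and -0.03, and none passed the threshold. In total RNA 2 were positive and 2 negative.

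Of the box H/ACA snoRNP proteins, which carry the pseudouridine synthase dyskerin (Dkc1), Dkc1 footprints were 189 and 293 CPM in the knockdown and 251 and 317 CPM in the control. Its total RNA was 255 and 274 against 247 and 365 CPM. In both assays the groups overlapped. Nop10, a small protein that holds dyskerin's active site in place, had 98.3 and 192 against 153 and 254 CPM in footprints and 120.1 and 111 against 104 and 191 CPM in total RNA. Replicate 2 was above replicate 1 in both footprint groups, the groups overlapped, and the log2FC of -0.52 ± 0.33 had an interval from -1.26 to 0.22. Gar1, which helps load and release the substrate RNA, went the other way. Its footprints were 86.1 and 96.9 against 79.3 and 79.7 CPM and its total RNA 49.9 and 52.1 against 46.6 and 36.8 CPM. The knockdown libraries lay above both controls in each assay, at a log2FC of 0.20 ± 0.16 in footprints and 0.29 ± 0.17 in total RNA (adjusted p = 0.650 and 0.466, limma).

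Nucleolin (Ncl), an abundant nucleolar RNA-binding protein that takes part in the first steps of precursor processing, had 2953 and 3508 CPM in the knockdown footprints and 4208 and 4756 CPM in the control. In total RNA it had 1831 and 2067 against 2065 and 1221 CPM. Footprints were lower in both knockdown libraries than in either control, whereas in total RNA control 2 alone was low and the other 3 libraries lay close together. The log2FC was -0.48 ± 0.25 in footprints (adjusted p = 0.458, limma) and 0.29 ± 0.27 in total RNA (adjusted p = 0.663). Without total RNA control 2 the total RNA log2FC was -0.09, and without control 1 it was 0.67.

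The small subunit processome is the large particle that forms on the precursor rRNA as it is made. Imp3 and Imp4 help its U3 RNA to pair with the precursor. Imp3 total RNA was 40.3 and 35.5 CPM in the knockdown and 54.2 and 53.2 CPM in the control. Both controls lay close together and above both knockdown libraries, at a log2FC of -0.50 ± 0.14 with an interval from -0.85 to -0.15 (adjusted p = 0.209, limma). Imp3 footprints were 76.8 and 74.4 against 82.7 and 61.6 CPM, where the knockdown libraries fell between the controls. Imp4 had 81.4 and 86.7 against 81.9 and 75.6 CPM in footprints and 106 and 106 against 93.6 and 111 CPM in total RNA. Its groups overlapped in both assays.

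Utp3, Utp18 and Nol6 are further processome proteins, Utp18 a part of its UtpB complex and Nol6 of its UtpC complex. Utp3 footprints were 103 and 110.2 against 134 and 139 CPM, lower in the knockdown without overlap, at a log2FC of -0.36 ± 0.15 (adjusted p = 0.381, limma). Utp18 footprints were 92.7 and 107 against 137 and 116 CPM, also lower without overlap (-0.34 ± 0.17, adjusted p = 0.448, limma). Its total RNA, 104 and 101 against 95.5 and 159.8 CPM, overlapped, with control 1 the lowest library and control 2 the highest. Nol6 had the highest footprint log2FC of the group, 0.31 ± 0.19, from 281 and 378 against 282 and 245 CPM. Only knockdown 2 stood above both Nol6 controls. Rrp12, a repeat protein that accompanies small subunit precursors out of the nucleus, was higher without overlap in both assays. Rrp12 had 266 and 356 against 255 and 248 CPM in footprints and 199 and 200.2 against 160.1 and 169 CPM in total RNA (log2FC 0.29 ± 0.18 and 0.28 ± 0.13, adjusted p = 0.544 and 0.378, limma).

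Utp20, a long scaffold protein of the processome, had 508 and 543 against 423 and 473 CPM of total RNA, higher in the knockdown without overlap (0.23 ± 0.14, adjusted p = 0.494, limma). The processome protein Nop14 had 178 and 233 against 221 and 215 CPM in footprints and Nol10 114 and 175 against 148 and 162 CPM, and both overlapped. Over the 22 processome members, 12 had a positive and 10 a negative footprint log2FC, between -0.36 and 0.31, with a median of 0.04. In total RNA 13 were positive and 9 negative, between -0.50 and 0.29, with a median of 0.04. Groups did not overlap for 4 of the 22 in footprints (18.2%, against 44.8% of all genes) and for 7 in total RNA (31.8% against 47.9%).

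Utp14a and Utp14b code for nearly the same protein, Utp14b being a copy of Utp14a that arose by retroposition and is known for a role in sperm formation. The labels do not say how reads were divided between such copies, so both values are uncertain. Utp14b footprints were 189 and 48.9 CPM in the knockdown and 256 and 50.4 CPM in the control. The first replicate was high and the second low in both groups, so the groups overlapped and the interval of the log2FC ran from -1.93 to 1.45. In total RNA Utp14b had 31.3 and 33.7 against 40.0 and 47.0 CPM, lower without overlap and with no such gap between replicates (-0.41 ± 0.15, adjusted p = 0.308, limma). Utp14a footprints were 179 and 184 against 177 and 218 CPM, close together in all 4 libraries. By the RefSeq gene table Utp14b overlaps the protein-coding gene Acsl3, whose footprints were 50.6 and 66.1 against 74.5 and 78.2 CPM, without the gap between replicates. Acsl3 total RNA was 60.8 and 53.9 against 66.0 and 80.3 CPM, lower without overlap like that of Utp14b (-0.34 ± 0.16). The part of Acsl3 reads in the Utp14b values was not tested.

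Nop2 had the highest footprint log2FC of the members, and the sparsely read Nol4l the lowest, -0.66 ± 0.33. Nop2 codes for a methyltransferase that modifies a cytosine of the large subunit rRNA. Its footprints were 893 and 845 CPM in the knockdown and 658 and 494 CPM in the control, and its total RNA 284 and 278 against 251 and 329 CPM. Footprints in both knockdown libraries exceeded both controls, while total RNA of the knockdown lay between its controls. The footprint log2FC was 0.61 ± 0.20 with an interval from 0.16 to 1.06 (unadjusted p = 0.0137 and adjusted p = 0.267, limma). Leaving out each footprint library in turn moved it between 0.40 and 0.81. Nop2 is also 1 of the 10 members with an E-box.

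Bop1 and Pes1 are subunits of the PeBoW complex, which is needed to mature the large subunit rRNA. Bop1 footprints were 263 and 284 against 222 and 236 CPM and its total RNA 197 and 203 against 159 and 173 CPM. Both knockdown libraries lay above both controls in each assay, at a log2FC of 0.25 ± 0.16 and 0.27 ± 0.13 (adjusted p = 0.539 and 0.398, limma). Pes1 had 327 and 375 against 375 and 352 CPM in footprints and 256 and 254 against 239 and 294 CPM in total RNA. Its groups overlapped in both.

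Rrp15, a factor of early large subunit particles, had 133 and 139 against 173 and 176 CPM in footprints and 135 and 133 against 139.9 and 191 CPM in total RNA. Both assays were lower in the knockdown without overlap, by a log2FC of -0.36 ± 0.15 and -0.29 ± 0.18 (adjusted p = 0.375 and 0.505, limma). Nop53, which brings the exosome to large subunit precursors, was likewise lower in each, with 272 and 238 against 308 and 284 CPM and 232 and 224 against 270.1 and 283 CPM. Its log2FC was -0.22 ± 0.16 and -0.28 ± 0.13. Nop16, a nucleolar protein of large subunit assembly, was higher in each. Nop16 had 84.4 and 100.0 against 83.9 and 83.2 CPM in footprints and 67.2 and 72.4 against 57.4 and 53.9 CPM in total RNA, and its RNA log2FC of 0.32 ± 0.14 was the highest of all members in that assay (adjusted p = 0.350, limma).

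Noc3l and Nol8, further nucleolar proteins of large subunit assembly, had footprints of 125 and 151 against 153 and 166 CPM and 96.7 and 129 against 131 and 143 CPM. Both were lower in the knockdown without overlap in footprints and overlapped in total RNA. Across the 13 large subunit members 6 had a positive and 7 a negative footprint log2FC, between -0.36 and 0.61, with a median of -0.01. In total RNA 8 were positive and 5 negative, between -0.29 and 0.32, with a median of 0.03. Groups did not overlap for 8 of the 13 in footprints, 4 higher and 4 lower (61.5%, against 44.8% of all genes), and for 7 in total RNA, 4 higher and 3 lower (53.8% against 47.9%).

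**Figure D2:**
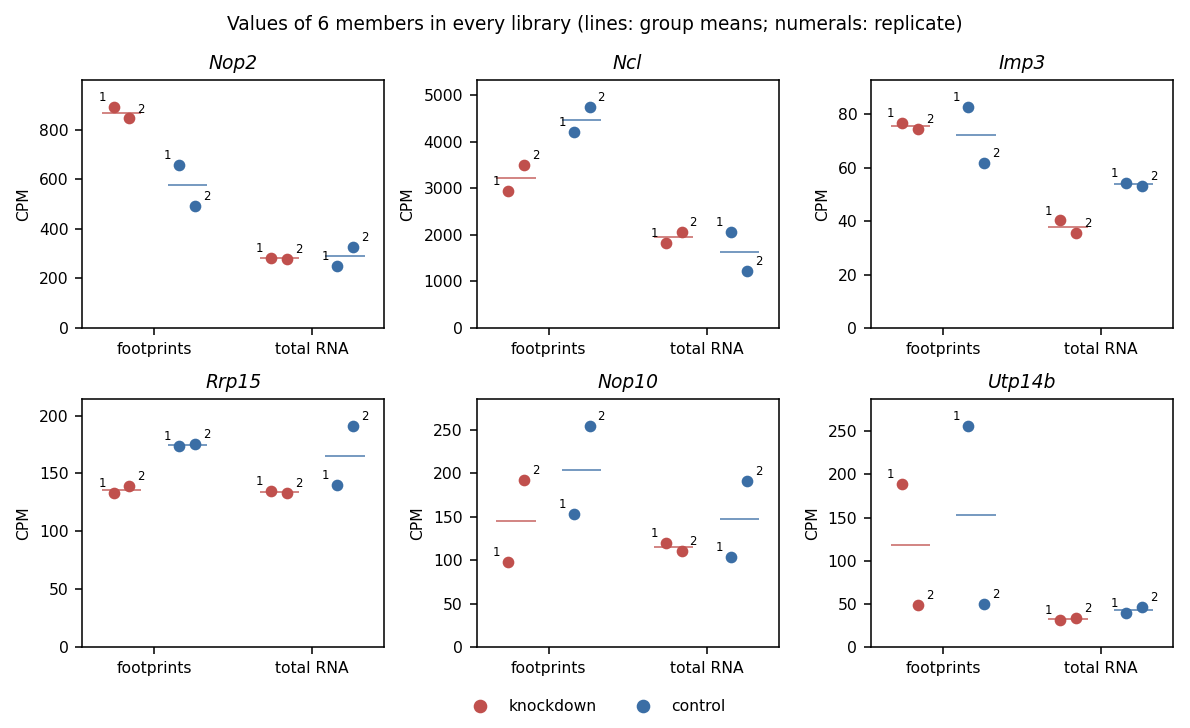
CPM of 6 members (vertical axes, from 0) in every footprint and total RNA library, knockdown in red and control in blue, with a line at each group mean and the replicate number beside each point. Nop2 footprints were 893 and 845 CPM in the knockdown against 658 and 494 CPM in the control, Imp3 total RNA was lower in both knockdown libraries, and Utp14b footprints separated by replicate number.

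The RNA exosome degrades RNA from its ends, and its barrel of Exosc4 to Exosc9 carries a cap of Exosc1, Exosc2 and Exosc3 and the nuclease Exosc10. Exosc2 had the lowest footprint log2FC of the complex, -0.36 ± 0.17, from 132 and 117 CPM in the knockdown against 147 and 174 CPM in the control. Exosc8 followed with 93.1 and 113 against 126 and 124 CPM. For both the knockdown libraries lay below the controls (adjusted p = 0.422 and 0.520, limma). Exosc4, at the other end, had 90.7 and 93.7 against 84.0 and 71.4 CPM, and Exosc3 101 and 106 against 88.8 and 92.1 CPM, both higher without overlap. The nuclease Exosc10 had 140.3 and 164 against 149.9 and 146 CPM, with overlapping groups and a log2FC of 0.04 ± 0.16.

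In total RNA the 9 exosome members stayed between -0.26 (Exosc9) and 0.09 (Exosc1). Exosc9 had 54.0 and 54.6 against 54.8 and 77.4 CPM and was the only exosome member without overlap in this assay. Its control 1 lay just above the knockdown libraries and control 2 well above them. In footprints 6 of the 9 had a positive and 3 a negative log2FC, with none past the threshold. The 2 members without a role in rRNA were low in reads. Nol3 had 3.26 and 2.41 against 2.34 and 2.28 CPM in footprints and Nol4l 3.71 and 2.09 against 5.52 and 4.56 CPM. Their footprint log2FC, 0.20 and -0.66, lay on either side of the members' median of -0.02. Leaving both out could therefore not move that median. Nol4l total RNA, at 4.66 and 5.41 against 12.8 and 5.10 CPM, had a log2FC of -0.61 ± 0.39, which was -0.02 without control 1 and -1.20 without control 2.

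The change in translational efficiency is the footprint log2FC minus the total RNA log2FC, fitted in 1 limma model over all 8 libraries. The footprint and total RNA tables were normalized separately, so it is a difference between differences. The members had a median of -0.05 (all genes -0.00), with 21 positive and 33 negative. At an unadjusted limma p of 0.05 it gave 2 members, both higher, where 1.55% of all genes passed (0.955% higher, 0.599% lower). They were Nop2, at 0.64 ± 0.27, and Imp3, at 0.58 ± 0.25. For Nop2 the footprints carried the difference and for Imp3 the total RNA did, as the values above show. Ncl had the lowest value of the members, -0.77 ± 0.37, with an interval from -1.58 to 0.05. The low Ncl value of total RNA control 2, 1221 CPM against 2065 CPM in control 1, enters this difference. The next members by p were Exosc3 at 0.36 ± 0.27, Noc3l at -0.30 ± 0.22, Nol8 at -0.34 ± 0.27, Nol10 at -0.33 ± 0.30 and Nop14 at -0.23 ± 0.23. For 46 of the 54 members (85.2%, against 62.0% of all genes) the 95% interval lay inside a 2-fold change.

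**Figure D3:**
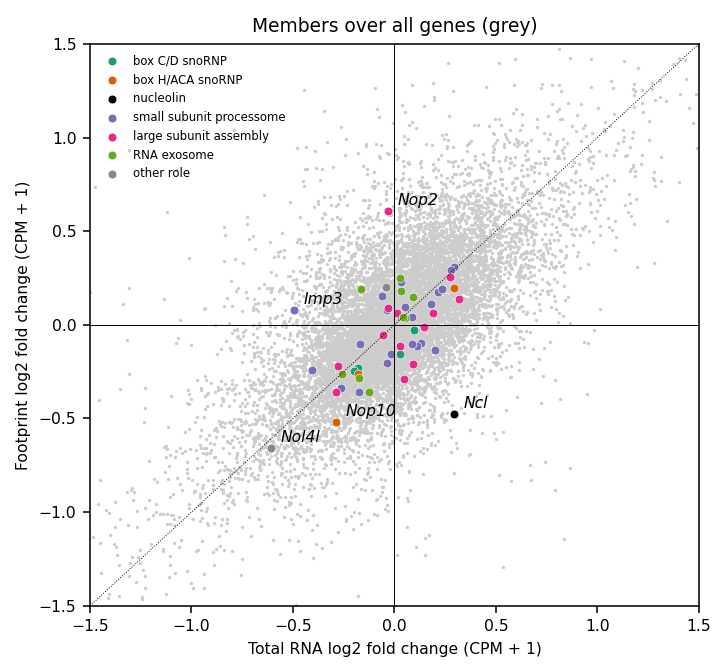
Footprint log2 fold change (vertical axis) against total RNA log2 fold change (horizontal axis), both knockdown against control on the CPM + 1 scale, for the 54 members coloured by role and for all genes in grey, with a dotted line where both are equal and axes that end at 1.5. Nop2 (0.61 in footprints, -0.03 in total RNA) and Imp3 (0.08 and -0.50) lie above the line and Ncl (-0.48 and 0.29) below it.

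In the control cells the footprint CPM of a member divided by its total RNA CPM had a median of 1.30 over the 52 members with at least 10 CPM, against 0.809 over 8991 genes. The ratio depends on the separate scaling of the tables, which touches members and other genes alike. It was not adjusted for the length of a transcript or of its coding part. The part of length in the difference between members and other genes was not tested. It was 1.41 in control 1 and 1.10 in control 2, and 1.16 and 1.36 in knockdown 1 and 2, where all genes stayed between 0.778 and 0.799. The ratios paired libraries by replicate number, which the labels do not describe as a shared culture. Ncl reached 2.04 and 3.90 in the controls against 1.61 and 1.70 in the knockdown, and Nop2 2.62 and 1.50 in the controls. The Ncl ratio of 3.90 is that of control 2, where its total RNA was low (1221 CPM).

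Many members differed in the same direction between the libraries of a group. In total RNA, control 2 was above control 1 for 43 of the 54, by a median of 0.25 on the log2 scale, where the median gap over all genes was -0.00. Control 1 was the lowest of the 4 libraries for 35 members (64.8%, against 27.6% of all genes) and control 2 the highest for 31 (57.4% against 35.7%). Both knockdown libraries lay between the controls for 25 members (46.3% against 28.5%). Control 2 was below control 1 for the rest, which were Ncl, Gar1, Imp3, Noc4l, Nol6, Nol10, Nol12, Nop16, Exosc10, Nol3 and Nol4l.

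**Figure D4:**
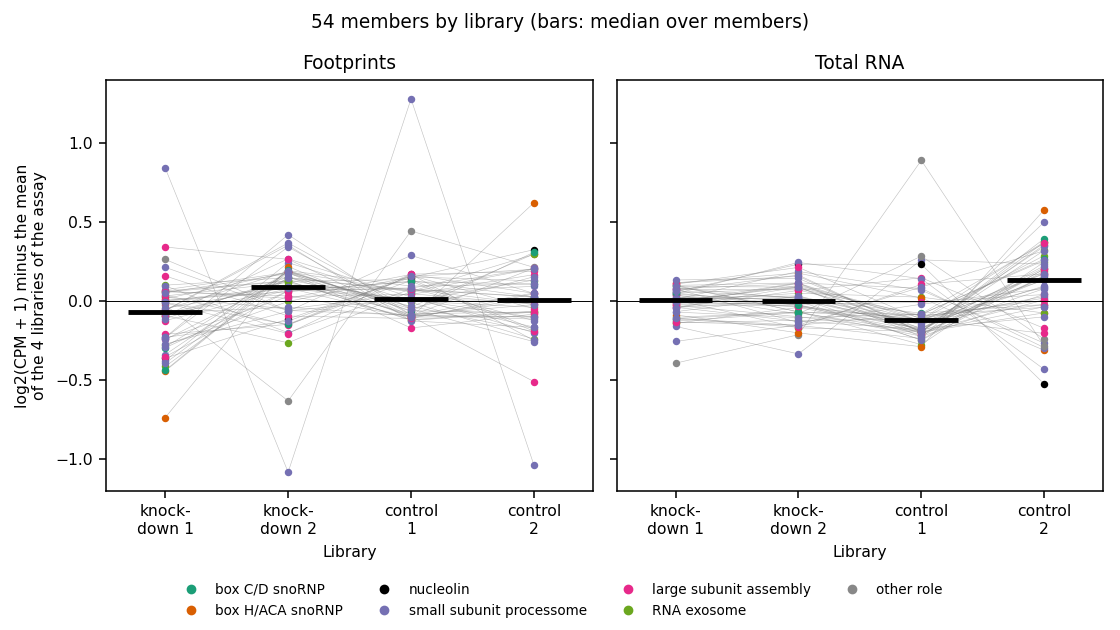
Log2(CPM + 1) of each of the 54 members minus its mean over the 4 libraries of the assay (vertical axis), by library (horizontal axis), coloured by role, with grey lines joining a member's points and black bars at the median over members. In total RNA 35 members are lowest in control 1 and 31 are highest in control 2, and both knockdown medians lie between those of the controls.

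The direction of the members in total RNA, and the members called, depended on which control was kept. Without control 1, 20 members had a positive and 34 a negative log2FC. Without control 2, 41 were positive and 13 negative. The median log2FC of the members was -0.12 in the first case and 0.13 in the second. Without knockdown 1 or knockdown 2 no member was called, where 0.461% and 0.253% of all genes were. With a single control the fit has to assume that it varies as much as the knockdown pair, and the knockdown pair lay close together (a median gap of 0.06 for the members, against 0.33 between the controls). Called against each control alone were 6 members (11.1%, against 15.5% of all genes), 5 in the same direction (12.6% of all genes) and 1 in opposite directions (2.84%). Bop1, Nop16 and Rrp12 were higher and Imp3 and Nop53 lower in both. The log2FC was 0.21 and 0.33 for Bop1, 0.37 and 0.28 for Nop16 and 0.24 and 0.32 for Rrp12. It was -0.48 and -0.51 for Imp3 and -0.31 and -0.25 for Nop53. Both fits used the same knockdown pair, so they are not independent of each other. Members called without control 1 alone included Ncl, Gar1 and Nol6, which were higher. Dkc1, Nop10, Nop56, Nop58, Pes1, Rrp15, Exosc9 and Utp14b were among those lower in that case. Members called without control 2 alone included Utp20, which was higher, and Nol4l, which was lower. Further members, not named here, were called in each case. Rrp1 turned, from -0.20 against control 2 to 0.22 against control 1.

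**Figure D5:**
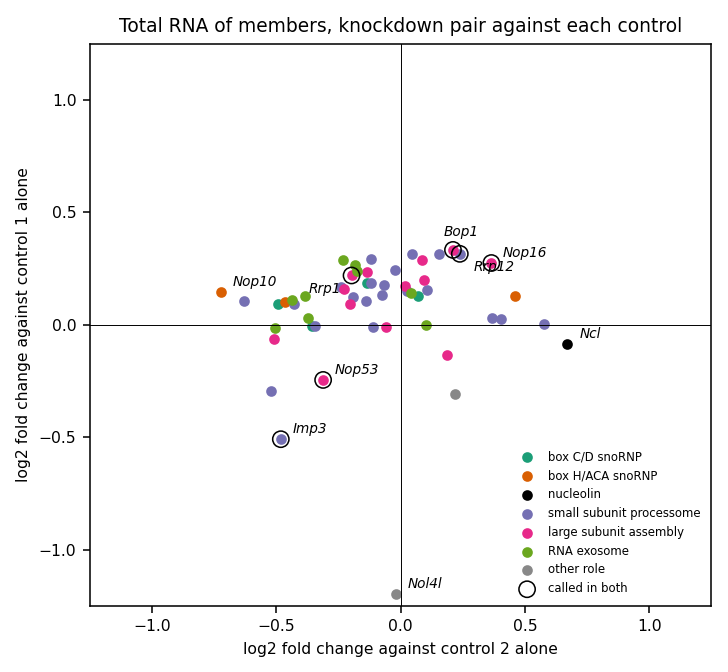
Total RNA log2 fold change of the knockdown pair against control 1 alone (vertical axis) and against control 2 alone (horizontal axis), CPM + 1 scale, for the 54 members coloured by role, with rings around the 6 called against each. Of the 54 members 34 lie left of 0 and 41 lie above 0, and Imp3 and Nop53 are the ringed members lower against each control.

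In footprints the libraries that lay apart were those of the knockdown. Knockdown 2 was above knockdown 1 for 40 of the 54 members, by a median of 0.15 on the log2 scale (all genes -0.01). It was the highest library for 24 members (44.4%, against 25.4% of all genes), and knockdown 1 the lowest for 23 (42.6% against 27.9%). In the processome knockdown 2 was above knockdown 1 for 18 of 22 members, and in the exosome for 8 of 9. Without knockdown 1 the median footprint log2FC of the members was 0.08, and without knockdown 2 it was -0.08. No member was called in either case.

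Other genes of ribosome production were taken from lists of RNA polymerase I transcription, further subunit assembly factors, H/ACA partners, exosome nucleases with their cofactors, and the Myc family. Of 106 such genes 38 had a positive and 68 a negative footprint log2FC, with a median of -0.09, and in total RNA 61 were positive and 45 negative, with a median of 0.03. limma called none of the 106 in either assay. Polr1a, the largest subunit of RNA polymerase I, had 129 and 159 CPM in the knockdown footprints against 94.1 and 109 CPM in the control, higher without overlap (log2FC 0.49 ± 0.18, adjusted p = 0.293, limma). Polr1b, its partner subunit, had 185 and 243 against 206 and 211 CPM, and Ubtf, the factor that marks active rRNA genes, 349 and 325 against 388 and 339 CPM. Footprint groups overlapped for both Polr1b and Ubtf. In total RNA Polr1a was higher without overlap, at 119 and 129 against 98.1 and 106 CPM (log2FC 0.28 ± 0.13). Ubtf was lower without overlap there, at 330 and 350 against 383 and 360 CPM (log2FC -0.13 ± 0.13), and Polr1b overlapped.

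Pno1, needed for the last cleavage of the small subunit rRNA, had the smallest footprint p of these genes, with 150.3 and 153 against 218 and 281 CPM (log2FC -0.70 ± 0.18, adjusted p = 0.182, limma). Gnl3, the stem cell protein nucleostemin, had 239.8 and 332 against 375 and 513 CPM (-0.63 ± 0.22, adjusted p = 0.289). Both were lower in the knockdown without overlap in footprints. Npm1, the abundant nucleolar chaperone nucleophosmin, had 2539 and 3719 against 4039 and 4189 CPM in footprints and 1980 and 2110 against 2268 and 3183 CPM in total RNA, again lower without overlap. Dis3, a nuclease of the exosome, overlapped in both assays, at 144 and 196 against 184 and 203 CPM in footprints.

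Myc total RNA was 38.7 and 42.5 CPM in the knockdown and 27.9 and 14.2 CPM in the control, and its footprints were 97.8 and 144 against 72.3 and 87.6 CPM. Both assays were higher in the knockdown without overlap, at a log2FC of 0.99 ± 0.31 and 0.57 ± 0.21 (adjusted p = 0.232 and 0.317, limma). Against a single control, limma called Myc higher in total RNA, at a log2FC of 1.45 without control 1 and 0.53 without control 2. The authors' deposited table called Myc higher in total RNA, at an FDR of 0.024. Mycn, a further member of the Myc family, had 262 and 243 against 186 and 170.0 CPM in total RNA, higher without overlap (0.50 ± 0.13, adjusted p = 0.187, limma). Mxi1, an antagonist of Myc, had 22.7 and 22.4 against 32.7 and 33.2 CPM, lower without overlap (-0.53 ± 0.14, adjusted p = 0.194, limma). Mycl, of the same family, was also lower without overlap, at 11.8 and 12.9 against 21.1 and 13.8 CPM (-0.44 ± 0.23). Of the 7 Myc family genes listed, 4 had a positive and 3 a negative total RNA log2FC (median 0.04). In footprints 3 were positive and 4 negative (median -0.10). Members with an E-box had a median log2FC of 0.07 in footprints (6 of 10 positive) against -0.10 for those without (13 of 33 positive), and of 0.01 in total RNA (5 of 10 positive) against 0.03 (19 of 33 positive).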

How the data were processed

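Footprints and total RNA were measured in 8 libraries of J1 cells, 2 per group. The authors deposited 1 table per assay whose library columns hold signal, reads divided by an effective library size (the CPM scale), with no stated role for each tool. The authors also deposited, per gene, log2 fold change and log2 mean CPM. A likelihood ratio (a score) and p-values with FDR were deposited beside them. The submitters' processing notes list edgeR 3.26.8, HTSeq 0.11.2, TopHat2 2.1.1, Bowtie 1.2.3 and build mm9. In each column 100% of values were whole multiples of 1 read within 0.01 read, and 1 read was worth 0.0751 to 0.114 CPM. In footprint control 2 that step, 0.0991 CPM, lay close to 0.1, so as a precaution no count test used this column. The filter on low read numbers did use it.

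From these values limma 3.58.1 in R 4.3.3 was fitted on log2(CPM + 1) over whole tables, with the prior variance as a trend in mean level and p-values adjusted by Benjamini-Hochberg. The filter was filterByExpr of edgeR 4.0.16 (minimum count 10, minimum total 15). Knockdown was compared with control within each assay, with 2 residual degrees of freedom, and the change in translational efficiency was the interaction over all 8 libraries. The fits were tested on simulated data with the same dispersion for every gene and no outlying library. That run checked the code and does not give the power of the fits in these data. Alternatives were another pseudocount, no filter, median scaling, a replicate block, 1 fit of all libraries, each library left out in turn, and edgeR or DESeq2 1.42.0 on recovered reads.

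The members, their roles, the related lists and the cell type markers were chosen with earlier results of these data known. Genes named were those the rule spells out, Nop56, Nop58 and Nop10, the 8 members with the smallest p in each comparison, the lowest and highest of each role group, 7 related genes (Myc, Mycn, Npm1, Polr1a, Polr1b, Ubtf and Dis3) and the 2 related genes with the smallest p per assay. Exosc3 and Exosc10 in footprints, Utp14a, Utp14b in footprints, Rrp1, Rrp9, Mycl and the members listed by library order were named after their values were seen.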

Additional observations from a re-analysis of the deposited data

How the results depend on the processing

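No member was called in any comparison under another pseudocount (0.25 or 5), no filter, median scaling or the replicate block. None was called in footprints or total RNA in 1 fit of all 8 libraries, in total RNA by edgeR or DESeq2, or in footprints by edgeR on 3 libraries. DESeq2 was not run on footprints. Over all genes limma's 0 calls became 40 under median scaling and 89 in 1 fit of all libraries for footprints, 97 in 1 fit of all libraries and 272 with DESeq2 for total RNA, and 3 with edgeR on 3 footprint libraries. The cause was not tested. With the replicate block, calls over all genes were 21 in footprints, 636 in total RNA and 1 in translational efficiency, and 0 members in each. The labels do not say that replicate numbers mark a shared culture, and the replicate 1 minus replicate 2 differences of knockdown and control correlated at 0.231 over 8205 genes in footprints and -0.275 over 9013 genes in total RNA, so the numbers were not taken as pairs. Under that block Myc was called in total RNA (log2FC 0.99). A crossed pairing, added after the data were seen, called 924 genes and 0 members in total RNA.

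Leaving out 1 library at a time gave 0 to 28 member calls in total RNA, with 28 without control 1, 15 without control 2 and 0 without either knockdown library, and 0 in footprints and translational efficiency. Over all genes it gave 20, 36, 4 and 1 calls in footprints without knockdown 1, knockdown 2, control 1 and control 2, and 62, 34, 6191 and 3411 in total RNA in the same order. The members' median log2FC ran from -0.081 to 0.075 in footprints, from -0.12 to 0.13 in total RNA and from -0.15 to 0.08 in translational efficiency. Members whose groups do not overlap went from 24 to between 34 and 43 in footprints (66.3% to 78.6% of all genes) and from 17 to between 19 and 49 in total RNA (59.4% to 88.7% of all genes), since fewer libraries overlap less often. These single log2FC changed sign in footprints: Dis3 (-0.42 to 0.022), Dkc1 (-0.57 to 0.053), Fbl (-0.063 to 0.011), Imp3 (-0.13 to 0.29, and -0.13 with edgeR on 3 libraries), Nop58 (-0.56 to 0.072), Pes1 (-0.15 to 0.044) and Polr1b (-0.17 to 0.22, and -0.017 under median scaling). In total RNA they were Dis3 (-0.19 to 0.041), Dkc1 (-0.46 to 0.10), Imp4 (-0.069 to 0.18), Ncl (-0.086 to 0.67), Nol3 (-0.31 to 0.22), Nop10 (-0.72 to 0.14), Nop58 (-0.50 to 0.094), Pes1 (-0.20 to 0.094) and Polr1b (-0.016 to 0.15). Nol3 and Nol4l are the members that depth limits most, with as few as 22 and 20 reads in a footprint library, where each other member had at least 262. The part of depth in the width of the intervals was not tested.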

Other observations

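Replicate number, and not only group, separated some members in footprints. Both second replicates lay above both first replicates for 12 of the 54 members (22.2%, against 14.7% of all genes), among them Nop10, Nop58 and Dkc1, and below both for 6 (11.1% against 16.4%). Utp14b was the extreme of the second kind. Its lower first replicate exceeded its higher second replicate by 1.88 on the log2 scale, the gap ranked 6 among 12723 genes, and 22 genes had such a gap of more than 2-fold. Utp14b total RNA showed no such split. These genes were picked after their values were seen, and the labels do not tie hairpins to replicates, so their part was not tested.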
